A study of Mus musculus with 4 samples.

Results

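The genes described here are 10 growth factor and receptor genes through which the cells around spermatogonia signal to one another: *Kitl*, *Cxcl12*, *Cxcr4*, *Csf1*, *Pdgfa*, *Pdgfra*, *Pdgfrb*, *Igf1*, *Igf1r* and *Vegfa*. They were chosen by symbol, and 10 of the 30828 genes listed in both single-cell matrices matched. The study asked what *Cnot3*, a subunit of the CCR4-NOT complex that shortens mRNA tails, does in the male germ line. CD9+/THY1+ cells were sorted from dissociated testes at postnatal day 8 and sequenced as 10x Genomics 3′ libraries, in which each unique molecular identifier (UMI) stands for 1 captured transcript. The control mice were *Cnot3* flox/flox without Cre (the labels call their genotype wild-type), and the *Cnot3*-cKO mice were *Cnot3* flox/flox; *Ddx4*-creER, in which a tamoxifen-activated Cre is driven by a germ cell promoter and is not directed at the somatic cells. Both genotypes received 4-hydroxytamoxifen from postnatal day 1. The labels give the last injection day as 1, 2, 3 and 4 for the 4 samples (days 1 and 2 for control, days 3 and 4 for *Cnot3*-cKO), whereas the methods describe 1 schedule for all animals; the number of animals behind a library was not given in the sources used here. The 2 samples of each genotype came as 1 merged matrix, so each genotype is 1 library, and differences between genotypes have no replicate check and no test. Error ranges are 95% intervals that cover counting error alone.

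In the postnatal testis, Sertoli cells surround the germ cells inside the tubule, peritubular myoid cells wrap the tubule, and stromal cells, macrophages and blood vessels lie between tubules. KIT ligand (*Kitl*) acts on the receptor KIT of differentiating spermatogonia, and the chemokine CXCL12 draws and holds cells that carry its receptor CXCR4. PDGFA acts on the receptor PDGFRA of interstitial and peritubular cells, PDGFRB is the receptor of mural cells around vessels, CSF1 sustains macrophages through CSF1R, IGF1 acts on the widely expressed receptor IGF1R, and VEGFA acts on the endothelial receptors FLT1 and KDR. Levels are given as counts per 1000000 UMIs (CPM), after summing the UMIs of all cells of a class. Levels are compared between classes and libraries for 1 gene at a time.

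In GRCm38, *Kitl* lies on chromosome 10 from 100015630 to 100100416, *Cxcl12* on chromosome 6 from 117168535 to 117181367, *Cxcr4* on chromosome 1 from 128588199 to 128592293, *Csf1* on chromosome 3 from 107741048 to 107760469 and *Pdgfa* on chromosome 5 from 138976014 to 138997370. *Pdgfra* lies on chromosome 5 from 75152292 to 75198215, *Igf1* on chromosome 10 from 87858265 to 87937042, *Igf1r* on chromosome 7 from 67952827 to 68233668 and *Vegfa* on chromosome 17 from 46016993 to 46032369. Each interval spans the whole gene, exons and introns included, and all 10 genes are annotated as protein coding. *Cxcl12*, *Csf1*, *Pdgfra* and *Vegfa* are shown with the 250 bases before their RefSeq start (GRCm38.p6), because, with *Igf1* and *Pdgfrb*, they form a group whose levels varied together from cluster to cluster, as described further on. The *Igf1* window overlaps annotated exons and *Pdgfrb* had no window in the table used. The windows are chr6:117168285-117168534 on the plus strand for *Cxcl12*, chr3:107760470-107760719 on the minus strand for *Csf1*, chr5:75152001-75152250 on the plus strand for *Pdgfra* and chr17:46032378-46032627 on the minus strand for *Vegfa*. They hold no annotated exon, and each is written 5′ to 3′ with capitals marking every match to the motifs searched.
Cxcl12: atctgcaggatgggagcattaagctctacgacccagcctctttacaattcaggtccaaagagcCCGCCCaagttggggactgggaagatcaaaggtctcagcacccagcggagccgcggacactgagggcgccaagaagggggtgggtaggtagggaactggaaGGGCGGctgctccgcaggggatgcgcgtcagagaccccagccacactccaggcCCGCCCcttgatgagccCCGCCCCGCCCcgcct
Csf1: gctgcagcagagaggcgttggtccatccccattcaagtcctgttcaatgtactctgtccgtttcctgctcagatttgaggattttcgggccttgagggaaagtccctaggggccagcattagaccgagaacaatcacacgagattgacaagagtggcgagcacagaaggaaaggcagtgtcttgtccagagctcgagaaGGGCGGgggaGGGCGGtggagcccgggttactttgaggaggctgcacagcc
Pdgfra: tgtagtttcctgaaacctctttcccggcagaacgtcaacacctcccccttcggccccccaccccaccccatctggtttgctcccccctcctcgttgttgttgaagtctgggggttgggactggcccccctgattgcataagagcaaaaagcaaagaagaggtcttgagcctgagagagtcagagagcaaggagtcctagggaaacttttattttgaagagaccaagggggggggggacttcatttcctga
Vegfa: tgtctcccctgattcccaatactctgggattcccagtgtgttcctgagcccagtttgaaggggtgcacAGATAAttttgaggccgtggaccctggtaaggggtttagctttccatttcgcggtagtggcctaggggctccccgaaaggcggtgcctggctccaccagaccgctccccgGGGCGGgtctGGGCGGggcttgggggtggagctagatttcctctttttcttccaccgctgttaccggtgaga
The motifs searched on both strands were the GC box GGGCGG, the TATA box TATAAA, the GATA motif AGATAA, the SOX motif ACAAAG and the nuclear receptor (NR5A1) motif AAGGTCA. The *Cxcl12* window held 5 GC boxes, of which the last 2 overlap by a base, the *Csf1* window held 2, and the *Vegfa* window held 2 and a GATA motif. The *Pdgfra* window held no match to any of the 5 motifs. Among 32851 promoter windows of the same length, 32.7% held a GC box, 12.4% a TATA box, 9.99% the GATA motif, 16.5% the SOX motif and 4.08% the nuclear receptor motif. GC content was 64.4% for *Cxcl12*, 56.4% for *Csf1*, 54.4% for *Pdgfra* and 59.2% for *Vegfa*, against a median of 52.4% (25th to 75th percentile 45.2 to 61.2%) over all windows. Of the 10 genes, 9 had a window in the RefSeq table.

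The control library held 181550221 UMIs and the *Cnot3*-cKO library 168770743. Applying the filters in the study's methods (no more than 10% mitochondrial UMIs, and UMIs and genes within 2 standard deviations of the mean) left 5615 and 6034 cells, the stated set. The study reported fewer cells for each genotype, and the barcodes were called as cells here by a separate rule, given under processing. A wider set, with up to 20% mitochondrial UMIs and no upper bound on depth, held 8259 and 9268 cells and kept the germ cells of high UMI number that those filters remove. In the stated set the clusters gave 241 and 73 germ-like cells, 1400 and 1723 Sertoli-like, 1287 and 1516 myoid-like, 2107 and 2108 stroma-like, 49 and 61 macrophage-like and 33 and 37 endothelial-like cells (control and *Cnot3*-cKO in this order, here and below), numbers that the CD9 and THY1 gates also set. Among these classes, every marker on the germ, Sertoli, myoid, macrophage and endothelial lists was highest in its own class. Of the stroma markers, 4 of 8 were. The summed stroma marker level was 9673 and 9256 CPM in stroma-like cells and 5590 and 5654 CPM in myoid-like cells. The clusters were named from these same lists, so this is not an independent check. A mural-like cluster, described below, lies outside these classes. Its myoid markers summed to 15349 and 15896 CPM, above the 5218 and 4288 CPM of myoid-like cells. *Cnot3* itself measured 69.4 and 38.0 CPM in germ-like cells (log2 ratio of *Cnot3*-cKO over control −0.87, interval −1.29 to −0.48), and its log2 ratio lay between −0.13 and 0.06 in the other 5 classes; 3′ tags may fall outside the deleted exons. The called libraries shared 18 barcodes, against 11.5 by chance.

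The genes differed in the class of cell where they were highest, and stroma-like and myoid-like cells shared high *Igf1*, *Pdgfra* and *Cxcl12*. Among the 6 classes, *Kitl* and *Pdgfa* were highest in Sertoli-like cells, *Igf1*, *Pdgfra*, *Pdgfrb*, *Igf1r* and *Vegfa* in stroma-like cells, and *Cxcl12* and *Cxcr4* in endothelial-like cells. A mural-like cluster of 20 and 9 cells, too few to count as a class, was higher still for *Pdgfa* and *Pdgfrb*, and in *Cnot3*-cKO for *Igf1r* (185 CPM from 23 UMIs), though in *Cnot3*-cKO its intervals for *Pdgfa* and *Igf1r* overlap those of the leading class. The class of highest level was the same in both libraries for 9 of the 10 genes, *Csf1* being the exception. Of 30 pairs of gene and class with at least 100 UMIs over both libraries, 2 differed by 1.5-fold or more between genotypes. These were *Kitl* in germ-like cells and *Igf1* in macrophage-like cells. By class this was 1 of 4 genes in germ-like, 1 of 1 in macrophage-like, 0 of 2 in endothelial-like and 0 of 5 in Sertoli-like cells. Myoid-like and stroma-like cells had 0 of 9 each. Over all genes with at least 100 UMIs, 10.4% passed that fold in germ-like cells, 12.2% in macrophage-like, 8.27% in endothelial-like, 1.95% in myoid-like, 1.79% in Sertoli-like and 1.53% in stroma-like cells, and these shares are the background for the counts over the 10 genes. In the wider set 4 of 39 pairs passed the fold: *Cxcl12* and *Cxcr4* in germ-like cells, *Cxcl12* in endothelial-like and *Igf1* in macrophage-like cells. The counts were 2 of 9 genes in germ-like, 1 of 1 in macrophage-like, 1 of 3 in endothelial-like and 0 of 8 in Sertoli-like cells. Myoid-like and stroma-like cells again had 0 of 9 each. The shares of all genes were 9.96% in germ-like, 13.6% in macrophage-like, 8.61% in endothelial-like, 2.16% in myoid-like, 2.08% in Sertoli-like and 1.54% in stroma-like cells.

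**Figure D1:**
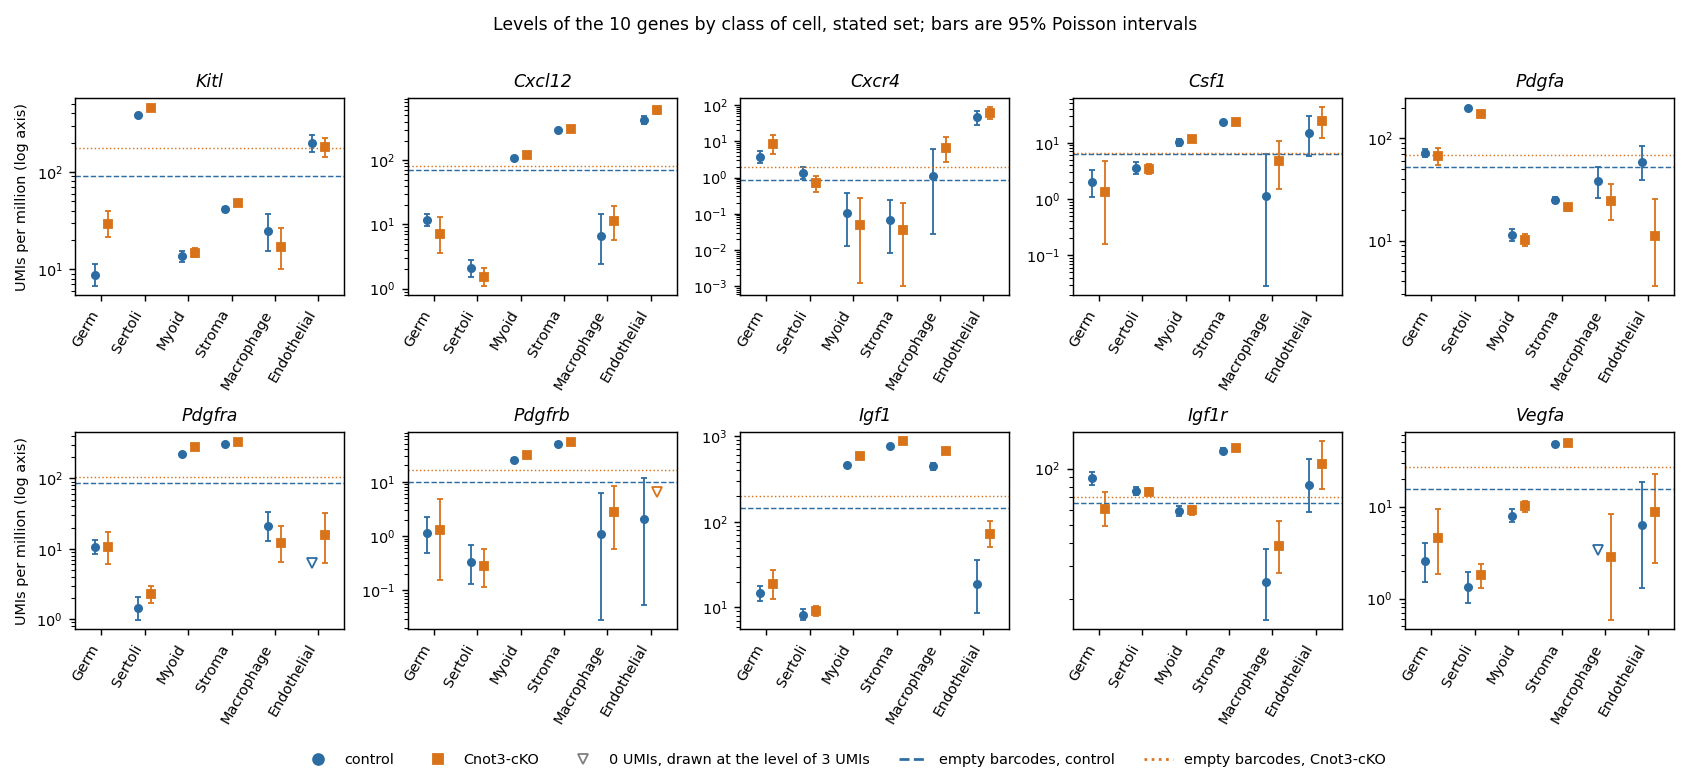
Level in CPM (log axis) of each of the 10 genes in 6 classes of cell, 1 panel per gene, for control and *Cnot3*-cKO cells of the stated set; bars are 95% Poisson intervals. *Kitl* stands at 388 and 457 CPM in Sertoli-like cells, far above myoid-like cells at 13.6 and 14.9, and *Igf1* at 760 and 862 CPM in stroma-like cells, far above Sertoli-like cells at 8.27 and 9.12.

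*Kitl*, the ligand of the receptor KIT, was a Sertoli-like gene in both libraries. Its level in Sertoli-like cells was 388 CPM (379.9 to 396.8) in control and 457 CPM (449 to 466) in *Cnot3*-cKO, for a log2 ratio of 0.24 (0.20 to 0.28). The slightly higher level in *Cnot3*-cKO was seen in each of the 4 Sertoli-like clusters, where control and *Cnot3*-cKO gave 382 and 428 CPM in the cycling cluster led by *Ube2c* and *Top2a*, 413 and 487 CPM in the largest cluster, 334 and 394 CPM in the cluster led by *Cidea*, and 375 and 449 CPM in the cluster with *Atf3*. With every cell thinned to 7500 UMIs, 91.9% and 94.1% of Sertoli-like cells had a *Kitl* UMI, against 9.09% and 10.4% of myoid-like cells. Endothelial-like cells came next with 198 and 179 CPM, whose intervals (160 to 242, and 142 to 222) overlap, followed by stroma-like cells with 41.2 and 48.2 CPM. Barcodes of at most 100 UMIs, which hold free RNA, carried *Kitl* at 91.3 and 177 CPM. Such levels, called free RNA levels below, describe the free RNA itself. Free RNA makes up only part of a cell's UMIs, so a gene below that level need not be free RNA.

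In germ-like cells *Kitl* measured 8.75 CPM from 62 UMIs in control and 29.5 CPM from 45 UMIs in *Cnot3*-cKO, for a log2 ratio of 1.75 (1.16 to 2.33). A few cells carried much of it. The 3 germ-like cells of each library with 5 or more *Kitl* UMIs held 24.2% of the germ-like *Kitl* UMIs in control and 51.1% in *Cnot3*-cKO, and their summed Sertoli markers ranged from 950 to 2385 CPM and from 1375 to 8320 CPM, against medians of 53.1 and 109 CPM in the other germ-like cells. Over the whole class the 10 Sertoli markers summed to 128 CPM in control and 378 CPM in *Cnot3*-cKO, with 1 of the 10 at 0 in either library, and their part in the *Kitl* difference was not tested. Without doublet calls the stated set gave 5.77 CPM from 39 UMIs and 17.9 CPM from 25 UMIs (1.63, 0.84 to 2.39), under 100 UMIs in all. In the wider set *Kitl* was 11.7 and 15.5 CPM (log2 ratio 0.41, 0.23 to 0.59), and without the cells called doublets it was 3.67 and 6.35 CPM (0.79, 0.46 to 1.12) while the Sertoli markers were 78.6 and 150 CPM. *Kit*, the receptor, was a germ-like gene at 59.0 and 41.9 CPM (log2 ratio −0.49, −0.90 to −0.11) and was also present in stroma-like cells at 12.7 and 17.2 CPM. In the wider set *Kit* separated the germ-like clusters. It measured 109 and 93.6 CPM in cluster 11, led by *Dmrtb1* and *Rhox13*. Cluster 12, led by *Egr4*, *Nefm* and *Ret*, held 16.6 and 19.8 CPM. Cluster 11 had 446 and 133 cells and cluster 12 had 887 and 426, so their mix differed between the libraries. The part of this mix in germ-like differences over the whole class, here and below, was not tested.

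*Pdgfa*, the ligand of PDGFRA, shared the Sertoli-like pattern and was also found in germ-like cells. Sertoli-like cells held 198 CPM (192 to 204) in control and 172 CPM (167 to 177) in *Cnot3*-cKO, for a log2 ratio of −0.20 (−0.26 to −0.14). The lower *Cnot3*-cKO level held in 3 of the 4 Sertoli-like clusters (155 and 118 CPM, 215 and 186 CPM, 174 and 137 CPM) but not in the cluster with *Atf3*, at 239 and 250 CPM. So the 2 Sertoli-like ligands leaned in opposite directions in 3 of 4 clusters, both by less than 1.5-fold. These clusters come from the same 2 libraries and are not repeats. Both log2 ratios lay within the 5th to 95th percentile of all Sertoli-like genes with at least 100 UMIs, −0.25 to 0.34. Stroma-like cells leaned the same ways for both genes (*Kitl* 41.2 and 48.2 CPM), whereas *Kitl* in endothelial-like cells leaned lower (198 and 179 CPM). In stroma-like cells *Pdgfa* was 25.1 and 21.2 CPM (log2 ratio −0.25, −0.40 to −0.09), below the free RNA level of 52.2 and 68.4 CPM.

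Germ-like cells held *Pdgfa* at 71.5 CPM from 507 UMIs and 66.8 CPM from 102 UMIs, a log2 ratio of −0.10 (−0.42 to 0.21). Within the germ-like cells of the wider set it followed the *Kit* side: cluster 11 held 103 and 116 CPM and cluster 12 held 45.0 and 43.8 CPM. The same order appeared when cells were split by UMIs of *Kit* and of *Gfra1*, the GDNF co-receptor of undifferentiated spermatogonia, with 95.1 and 103 CPM in cells with *Kit* and no *Gfra1* UMI, and 36.7 and 35.9 CPM in cells with *Gfra1* and no *Kit* UMI. The mural-like cluster, led by *Rgs5* and *Higd1b*, carried *Pdgfa* at 315 CPM from 80 UMIs and 249 CPM from 31 UMIs. In *Cnot3*-cKO these 9 cells had Sertoli markers at 2510 CPM, against 62.9 CPM in control, whose part in that value was not tested.

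*Pdgfra*, the main receptor for PDGFA, was nearly absent from the Sertoli-like cells that carried the ligand. It measured 306 and 332 CPM in stroma-like cells (log2 ratio 0.12, 0.08 to 0.16) and 222 and 278 CPM in myoid-like cells (0.32, 0.26 to 0.38). Sertoli-like cells held 1.43 and 2.27 CPM, and endothelial-like cells 0 and 7 UMIs in the stated set and 12 and 12 UMIs (19.6 and 21.5 CPM) in the wider set, all below the free RNA level of 86.3 and 104 CPM. In both libraries the receptor was highest in stroma-like and then in myoid-like cells. *Pdgfrb* (chromosome 18, 61045150 to 61085061), the receptor of mural cells, was also led by stroma-like cells at 50.5 and 53.5 CPM and myoid-like cells at 25.3 and 31.2 CPM (0.30, 0.13 to 0.48), and reached 248 and 241 CPM in the mural-like cluster, which stood outside the 6 classes. No other of the 6 classes exceeded 3 CPM of *Pdgfrb*. Both receptors were found in the same thinned cell in 25.5% and 27.6% of stroma-like cells and in 12.8% and 16.8% of myoid-like cells. In stroma-like cells *Pdgfrb* was about as frequent with *Pdgfra* (29.5% and 31.4%) as without it (28.4% and 32.2%). In myoid-like cells it was found in 16.2% and 20.1% of cells with *Pdgfra* and in 16.2% and 16.3% of those without.

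**Figure D2:**
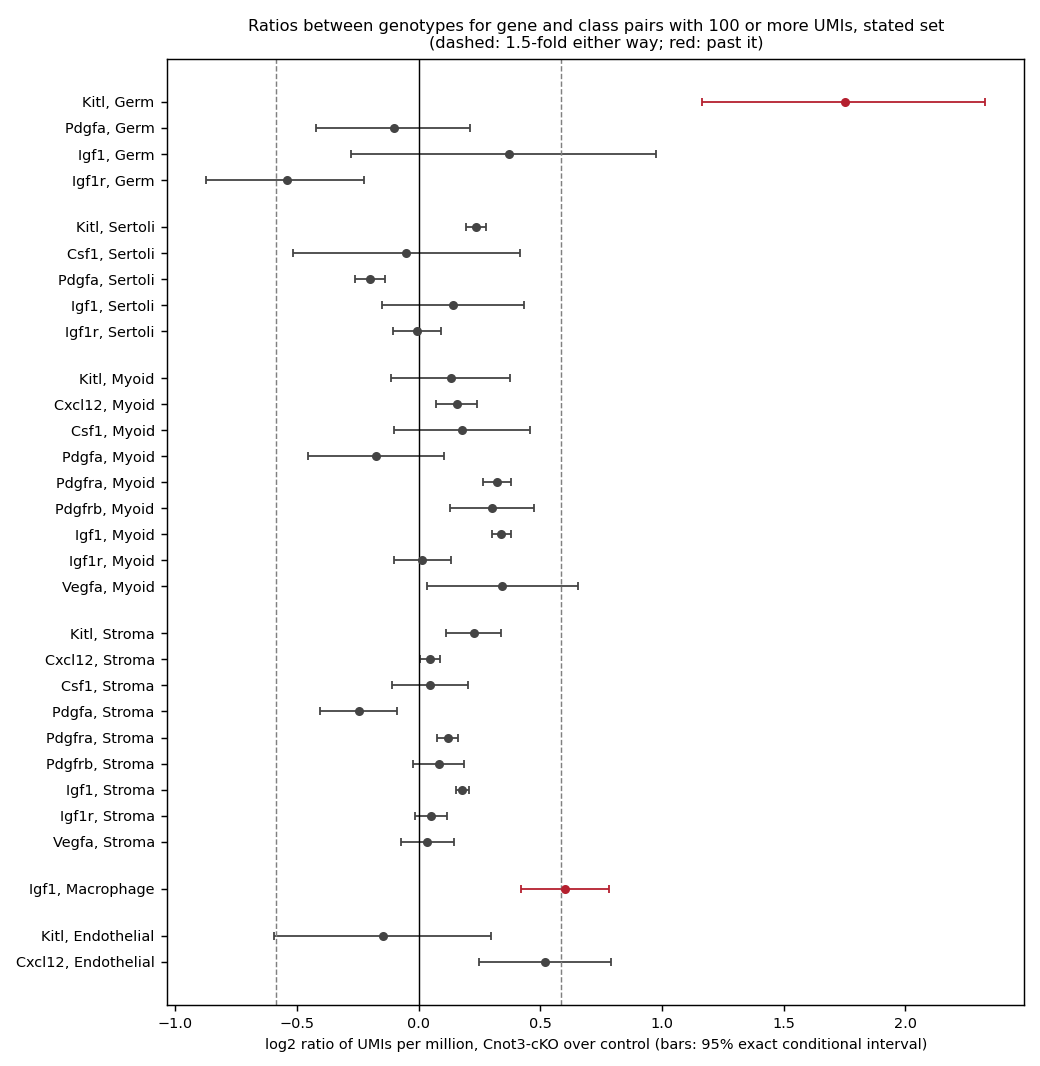
Log2 ratios of *Cnot3*-cKO over control (horizontal axis) with 95% conditional intervals for the 30 pairs of gene and class with at least 100 UMIs; dashed lines mark 1.5-fold either way. *Kitl* in germ-like cells (1.75) and *Igf1* in macrophage-like cells (0.60) lie past the upper line, and *Igf1r* in germ-like cells (−0.54) lies just inside the lower one.

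*Igf1*, the growth factor ligand of IGF1R, was high in stroma-like, myoid-like and macrophage-like cells. Stroma-like cells held 760 CPM (750.5 to 770.4) and 862 CPM (851 to 873), a log2 ratio of 0.18 (0.15 to 0.21). Myoid-like cells held 463 and 586 CPM, a log2 ratio of 0.34 (0.30 to 0.38). At clustering resolution 1.0, a myoid-like cluster led by *Ramp3* and *Btg2* had 252 and 824 cells, and another led by *Tnnt2* had 874 and 598. The part of this mix in the myoid-like ratios of any gene was not tested. Between the stroma-like clusters it was higher in cluster 4, led by *Lhcgr*, *Oxtr* and *Bmp2*, at 967 and 1064 CPM, than in cluster 7, led by *Clec3b* and *Mfap5*, at 508 and 521 CPM. *Cxcl12* and *Pdgfra* had the opposite order between these clusters. Germ-like cells carried *Igf1* at 14.7 and 19.0 CPM and Sertoli-like cells at 8.27 and 9.12 CPM, all far below the free RNA level of 146 and 201 CPM. The germ-like log2 ratio of *Igf1* was 0.37 in the stated set, −0.22 without doublet calls, −0.12 in the wider set and 0.44 in the wider set without doublet calls, so its direction turned with the cells used.

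Macrophage-like cells held *Igf1* at 442 CPM (399 to 487) from 396 UMIs in 49 control cells and 669 CPM (621 to 720) from 714 UMIs in 61 *Cnot3*-cKO cells, a log2 ratio of 0.60 (0.42 to 0.78). Per cell, the median was 272 and 541 CPM, and 55.1% and 77.0% of cells thinned to 7500 UMIs had an *Igf1* UMI. The 5 cells with the most held 31.6% and 24.2% of the UMIs. Of other cells' markers in these cells, stroma markers summed to 1178 and 431 CPM and Sertoli markers to 740 and 459 CPM, higher in control, while myoid markers summed to 114 and 227 CPM and endothelial markers to 29.0 and 67.5 CPM, higher in *Cnot3*-cKO. Their part in the *Igf1* level was not tested. Without doublet calls the levels were 463 and 687 CPM and the log2 ratio 0.57 (0.39 to 0.75), just under 1.5-fold.

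*Igf1r* was found in all 6 classes, and its level was lower in *Cnot3*-cKO in germ-like cells by just under 1.5-fold. Stroma-like cells held 125 and 129 CPM, Sertoli-like cells 75.5 and 75.1 CPM, myoid-like cells 59.2 and 59.9 CPM, endothelial-like cells 82.1 and 106 CPM and macrophage-like cells 24.5 and 38.4 CPM. In the classes with at least 100 UMIs other than germ-like cells, the log2 ratio lay between −0.01 and 0.05. In germ-like cells it measured 88.6 CPM from 628 UMIs and 60.9 CPM from 93 UMIs, a log2 ratio of −0.54 (−0.87 to −0.23), which is −0.67 (−1.04 to −0.32) without doublet calls.

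The wider set gave the same direction for *Igf1r* in germ-like cells with more UMIs, 103 CPM from 5853 UMIs in 1333 control cells and 70.7 CPM from 1831 UMIs in 559 *Cnot3*-cKO cells (log2 ratio −0.55, −0.62 to −0.47). The median cell held 91.1 and 59.4 CPM. Both germ-like clusters showed it, with 59.5 and 40.6 CPM in cluster 11 and 123 and 78.7 CPM in cluster 12. Each split by *Gfra1* and *Kit* UMIs also gave a lower *Cnot3*-cKO level. Cells with *Gfra1* alone (316 and 203 cells) held 129 and 84.2 CPM, and those with *Kit* alone (540 and 171) held 72.4 and 48.3 CPM. Those with both (101 and 97) held 102 and 78.3 CPM, and those with neither (376 and 88) held 129 and 73.0 CPM. The sets, clusters and splits are overlapping cuts of cells from the same 2 libraries and are not repeats. Free RNA carried *Igf1r* at 65.2 and 70.0 CPM, and median UMIs per wider-set germ-like cell were 42268 and 46199. In this set 9.96% of all genes with at least 100 UMIs passed 1.5-fold in germ-like cells, and the log2 ratio of *Igf1r* lay just inside that fold and below the 5th percentile of those genes, −0.50.

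*Cxcl12*, the chemokine ligand of CXCR4, had an endothelial-like and stroma-like pattern and was nearly absent from Sertoli-like cells. Endothelial-like cells held 419 CPM from 199 UMIs in 33 cells and 600 CPM from 272 UMIs in 37 cells, a log2 ratio of 0.52 (0.25 to 0.79). Sertoli markers in these cells were at 1785 CPM in control and 135 CPM in *Cnot3*-cKO, and without doublet calls the *Cxcl12* levels were 484 and 600 CPM (0.31, 0.04 to 0.58) with Sertoli markers at 1141 and 135 CPM. In stroma-like cells *Cxcl12* was 300 and 310 CPM, with 222 and 245 CPM in cluster 4 and 396 and 420 CPM in cluster 7. Myoid-like cells held 110 and 123 CPM, and Sertoli-like cells 2.09 and 1.54 CPM. The order endothelial-like, stroma-like, myoid-like held in both libraries, with no overlap between the intervals of neighbours.

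Germ-like cells of the stated set held *Cxcl12* at 11.9 CPM from 84 UMIs and 7.20 CPM from 11 UMIs. In the wider set the level was 19.6 CPM from 1110 UMIs in control and 9.61 CPM from 249 UMIs in *Cnot3*-cKO, for a log2 ratio of −1.03 (−1.23 to −0.83), and without doublet calls 15.1 and 6.31 CPM (−1.26). Cluster 12 held 27.5 and 11.4 CPM (−1.27, −1.48 to −1.06), while cluster 11 held 2.25 CPM from 40 UMIs and 2.92 CPM from 16 UMIs. Split by *Gfra1* and *Kit* UMIs, *Cxcl12* was 38.6 and 19.8 CPM in cells with neither (−0.96), 12.1 and 5.35 CPM with *Kit* alone (−1.18) and 15.1 and 9.19 CPM with *Gfra1* alone (−0.72). In cells with both, by contrast, the levels were 8.80 and 10.1 CPM, from 45 and 51 UMIs. Stroma markers in the cells with neither were also lower in *Cnot3*-cKO, at 226 and 108 CPM. In cluster 12 the stroma markers summed to 366 and 314 CPM and the Sertoli markers to 340 and 390 CPM. The part of these markers in the *Cxcl12* difference was not tested. All these germ-like levels lay below those of free RNA, 71.2 and 80.8 CPM.

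*Cxcr4*, the receptor of CXCL12, had few UMIs, 166 in all cells of the stated set. Endothelial-like cells held 46.3 CPM from 22 UMIs and 61.8 CPM from 28 UMIs, with intervals of 29.0 to 70.1 and 41.1 to 89.3 CPM. Germ-like cells were second with 3.81 CPM from 27 UMIs and 8.51 CPM from 13 UMIs. Stroma-like and myoid-like cells held at most 2 UMIs per library, so that the receptor was close to absent where *Cxcl12* was high, apart from the endothelial-like cells that held both. In the wider set *Cxcr4* in germ-like cells was 3.58 CPM from 203 UMIs in control and 9.69 CPM from 251 UMIs in *Cnot3*-cKO, for a log2 ratio of 1.43 (1.16 to 1.71), and 3.78 and 10.0 CPM without doublet calls (1.41, 1.12 to 1.70).

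The higher germ-like *Cxcr4* level lay with cluster 12, at 4.70 and 11.8 CPM (log2 ratio 1.33, 1.04 to 1.61), while cluster 11 held 1.13 CPM from 20 UMIs and 1.83 CPM from 10 UMIs. Cells with *Gfra1* and no *Kit* UMI held 6.83 and 14.2 CPM (1.05, 0.66 to 1.45), those with both 3.91 and 13.3 CPM (1.76, 1.02 to 2.56), those with neither 4.03 and 8.75 CPM (1.12, 0.44 to 1.77), and those with *Kit* alone 1.34 CPM from 31 UMIs and 2.29 CPM from 18 UMIs. Thinned to 7500 UMIs, a *Cxcr4* UMI was found in 2.55% of the wider set's germ-like cells in control and in 6.80% of them in *Cnot3*-cKO, against 0.0943% and 0% of stroma-like cells. Stroma-like cells had median depths of 13118 and 12423 UMIs. After thinning, 0 of 2134 *Cnot3*-cKO stroma-like cells had a *Cxcr4* UMI; before it the class held 1. Free RNA carried *Cxcr4* at 0.870 and 1.93 CPM, below the 3.58 and 9.69 CPM of all wider-set germ-like cells. Cluster 11 in *Cnot3*-cKO, at 1.83 CPM, lay below it, and cells with *Kit* alone were close to it. *Ackr3*, the scavenging receptor of CXCL12, was at 59.8 and 46.7 CPM in stroma-like and 92.6 and 104 CPM in endothelial-like cells, and in wider-set germ-like cells at 2.22 CPM from 126 UMIs and 1.31 CPM from 34 UMIs.

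**Figure D3:**
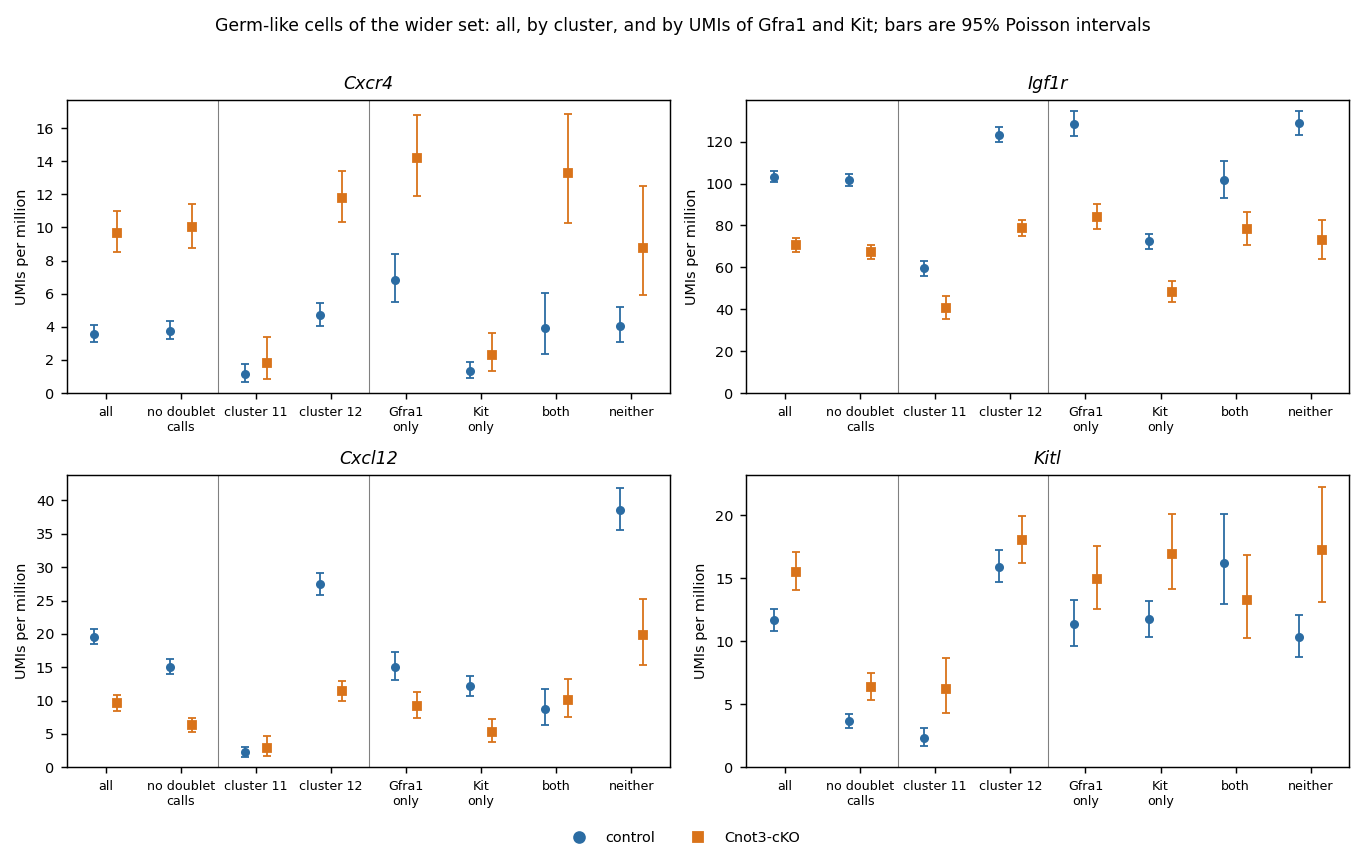
Level in CPM in germ-like cells of the wider set for *Cxcr4*, *Igf1r*, *Cxcl12* and *Kitl*, in all cells, without doublet calls, in clusters 11 and 12, and in cells split by UMIs of *Gfra1* and *Kit*, for both genotypes with 95% Poisson intervals. *Igf1r* was lower in *Cnot3*-cKO in both clusters and in all 4 splits, which are overlapping cuts of the same cells and not repeats. *Cxcr4* was higher in cluster 12 (4.70 and 11.8 CPM), and *Cxcl12* was lower there (27.5 and 11.4 CPM).

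*Csf1*, the macrophage growth factor, was found in stroma-like, endothelial-like and myoid-like cells. Stroma-like cells held 23.0 and 23.8 CPM (log2 ratio 0.05, −0.11 to 0.20), myoid-like cells 10.2 and 11.6 CPM, and endothelial-like cells 14.7 CPM from 7 UMIs and 24.3 CPM from 11 UMIs. Stroma-like cells were first in control and endothelial-like cells first in *Cnot3*-cKO, but the intervals of these 2 classes overlap in both libraries. *Csf1r*, its receptor, was at 742 and 955 CPM in macrophage-like cells (0.36, 0.22 to 0.51) and below 1 CPM in germ-like, Sertoli-like, myoid-like and stroma-like cells. Endothelial-like cells had no *Csf1r* UMI, which allows up to 6.32 and 6.62 CPM. Macrophage-like cells in turn held 1 and 5 UMIs of *Csf1*. *Il34*, the other ligand of CSF1R, stayed at or below 0.34 CPM in germ-like, Sertoli-like, myoid-like and stroma-like cells, had no UMI in macrophage-like and endothelial-like cells, and reached 43.2 CPM from 11 UMIs and 48.3 CPM from 6 UMIs in the mural-like cluster.

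*Vegfa*, the main vascular growth factor, was a stroma-like gene. It measured 47.6 and 48.9 CPM in stroma-like cells (log2 ratio 0.04, −0.07 to 0.14) and 7.97 and 10.1 CPM in myoid-like cells (0.34, 0.03 to 0.65). Cluster 4 held more, 54.8 and 56.2 CPM, than cluster 7, 38.9 and 36.5 CPM. The other classes held at most 44 UMIs per library. The receptors lay in endothelial-like cells, *Kdr* at 423 and 377 CPM (−0.17, −0.47 to 0.14) and *Flt1* at 339 and 516 CPM (0.61, 0.31 to 0.91). Without doublet calls *Flt1* was 364 and 516 CPM (0.50, 0.20 to 0.81), under 1.5-fold. Sertoli markers in these cells were higher in control, at 1785 and 135 CPM with doublet calls and 1141 and 135 CPM without, and their part was not tested. *Nrp1*, the co-receptor, was broad, at 362 and 344 CPM in endothelial-like, 278 and 319 CPM in stroma-like, 210 and 290 CPM in macrophage-like and 110 and 144 CPM in myoid-like cells.

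**Figure D4:**
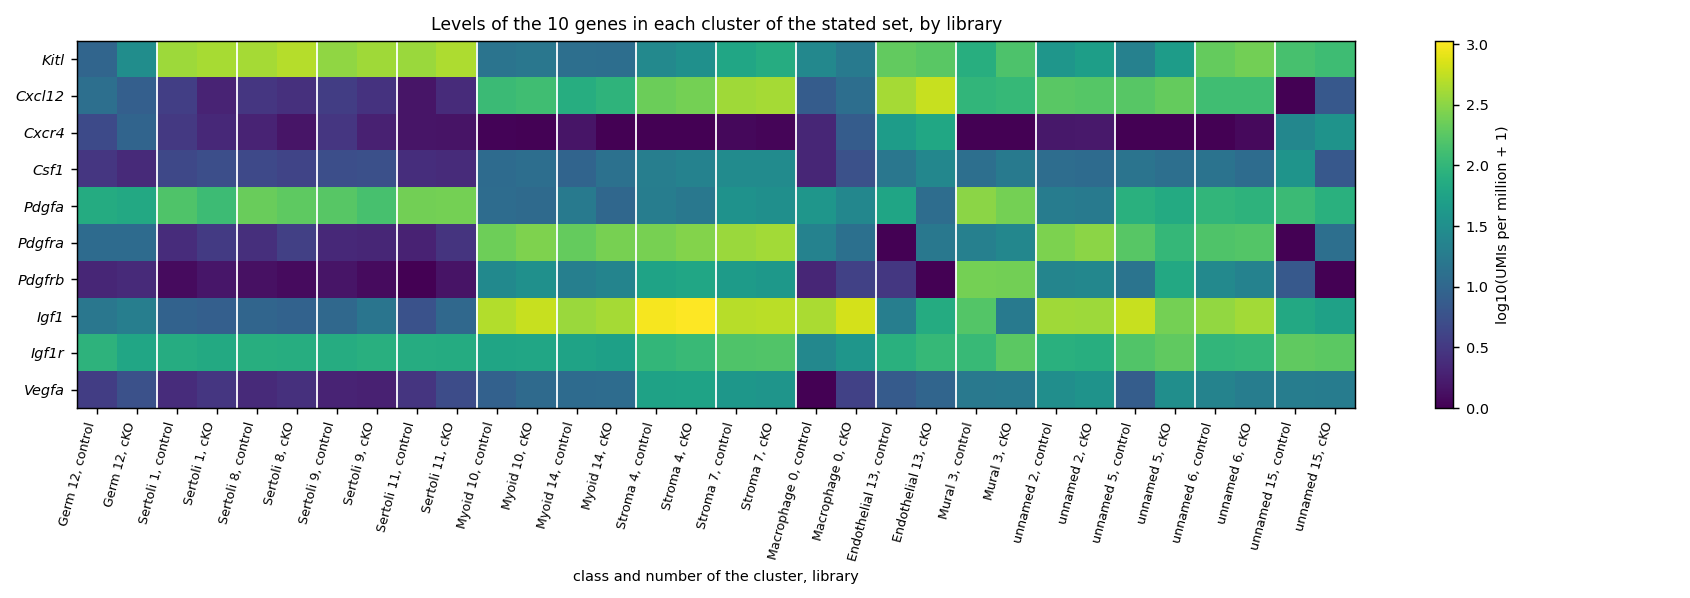
Heat map of log10(CPM + 1) of the 10 genes (1 axis) in each cluster of the stated set, control and *Cnot3*-cKO separately (other axis). The Sertoli-like clusters 1, 8, 9 and 11 share high *Kitl* and *Pdgfa*, and the stroma-like clusters 4 and 7 and myoid-like clusters 10 and 14 share high *Igf1*, *Pdgfra* and *Cxcl12*.

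Across 28 profiles (clusters of at least 20 cells, each library separately), the levels of several of the 10 genes varied together. These profiles share libraries and differ in depth and cell number, so the correlations of log2(CPM + 1) are descriptions. *Pdgfra* and *Igf1* had an r of 0.91, *Cxcl12* and *Csf1* 0.90, and *Kitl* and *Pdgfa* 0.75. *Vegfa* had an r of 0.85 with *Cxcl12*, 0.82 with *Csf1* and 0.81 with *Pdgfra*, and over the 6 pairs among these 4 genes, whose promoter windows are shown above, r ranged from 0.67 to 0.90, and from 0.66 to 0.91 with *Igf1* and *Pdgfrb* added. Of the ligands and their receptors, *Pdgfa* and *Pdgfra* had −0.73 and *Igf1* and *Igf1r* 0.07.

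Among all genes with at least 1000 UMIs, the profiles most like *Kitl* were *Dcaf12l1* (r 0.96), *St3gal2* (0.96) and *Slc44a2* (0.95), and those most like *Pdgfa* were *Sptb* (0.95), *Fhl1* (0.93) and *Cox7a1* (0.92). *Cxcl12* was most like *Heg1* (0.98), *Kctd17* (0.98) and *Ehd2* (0.97), and *Csf1* was most like *Ackr3* (0.93), *Plpp3* (0.92) and *Stox2* (0.92). *Pdgfra* came closest to *Smoc2* (0.99), *Creb3l1* (0.98) and *Clmp* (0.98), and *Pdgfrb* to *Tbx2* (0.97), *Ntrk2* (0.96) and *Serping1* (0.96). *Igf1* matched *Olfml3*, *Cxcl16* and *B3gnt8* at 0.97 each, *Igf1r* matched *Tle1* (0.87), *Igf2r* (0.86) and *Klf9* (0.83), and *Vegfa* matched *Plagl1* (0.93), *Peg3* (0.91) and *Zfp9* (0.90). *Cxcr4* had too few UMIs for this comparison. *Smoc2* is also one of the stroma markers.

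The other genes of these families, 29 ligands, receptors and binding proteins, differed by 1.5-fold or more in 0 of 8 measured in germ-like cells, 0 of 17 in Sertoli-like, 2 of 18 in myoid-like, 2 of 23 in stroma-like, 3 of 5 in macrophage-like and 2 of 9 in endothelial-like cells, beside the shares of all genes given above (10.4%, 1.79%, 1.95%, 1.53%, 12.2% and 8.27% in the same order). The IGF-binding proteins, which hold IGF1 in the tissue and tune its access to IGF1R, made up most of these. *Igfbp3* was higher in *Cnot3*-cKO in stroma-like cells, at 42.1 and 70.3 CPM (log2 ratio 0.74, 0.64 to 0.84), and in endothelial-like cells, at 196 and 342 CPM (0.80, 0.42 to 1.19, and 0.75 without doublet calls), while Sertoli-like cells held 66.4 and 68.3 CPM. *Igfbp5* was lower in myoid-like cells at 136 and 68.7 CPM (−0.98, −1.08 to −0.89), as was *Igfbp2* there at 3.80 and 2.50 CPM (−0.60, −1.15 to −0.07). In macrophage-like cells *Igfbp4* was 436 and 699 CPM (0.68, 0.50 to 0.86), *Nrp2* 75.9 and 135 CPM (0.83, 0.41 to 1.27) and *Igfbp7* 94.8 and 52.5 CPM (−0.85, −1.37 to −0.35), the last of which is high in stroma-like cells, whose markers were also lower in *Cnot3*-cKO macrophage-like cells (1178 and 431 CPM). Without doublet calls *Igfbp4* (0.71) and *Nrp2* (0.85) kept their difference, while *Igfbp7* held 28.6 CPM from 24 UMIs and 24.1 CPM from 23 UMIs, too few to count. *Flt1* in endothelial-like cells, given above, and *Pdgfc*, another PDGFRA ligand, at 6.23 and 3.88 CPM in stroma-like cells (−0.68, −1.04 to −0.33) complete the list. In wider-set germ-like cells 2 of 21 passed the fold, a share close to the 9.96% of all genes there: *Ackr3*, given above, and *Igfbp5* at 4.29 CPM from 243 UMIs and 1.27 CPM from 33 UMIs.

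Those below 1.5-fold showed where the remaining ligands and receptors lay. *Pdgfb*, the ligand of PDGFRB, was at 164 and 168 CPM in endothelial-like cells, *Pdgfc* at 35.5 and 36.7 CPM in Sertoli-like cells and *Pdgfd* held 506 and 470 UMIs in stroma-like cells. *Igf2*, the fetal IGF ligand, stayed below 4 CPM in germ-like, Sertoli-like, myoid-like and stroma-like cells. Its clearance receptor *Igf2r* was at 49.3 and 49.6 CPM in stroma-like, 36.2 and 37.2 CPM in Sertoli-like and 23.1 and 24.9 CPM in germ-like cells, and the insulin receptor *Insr* at 118 and 113 CPM in endothelial-like and 20.2 and 23.9 CPM in stroma-like cells.

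**Figure D5:**
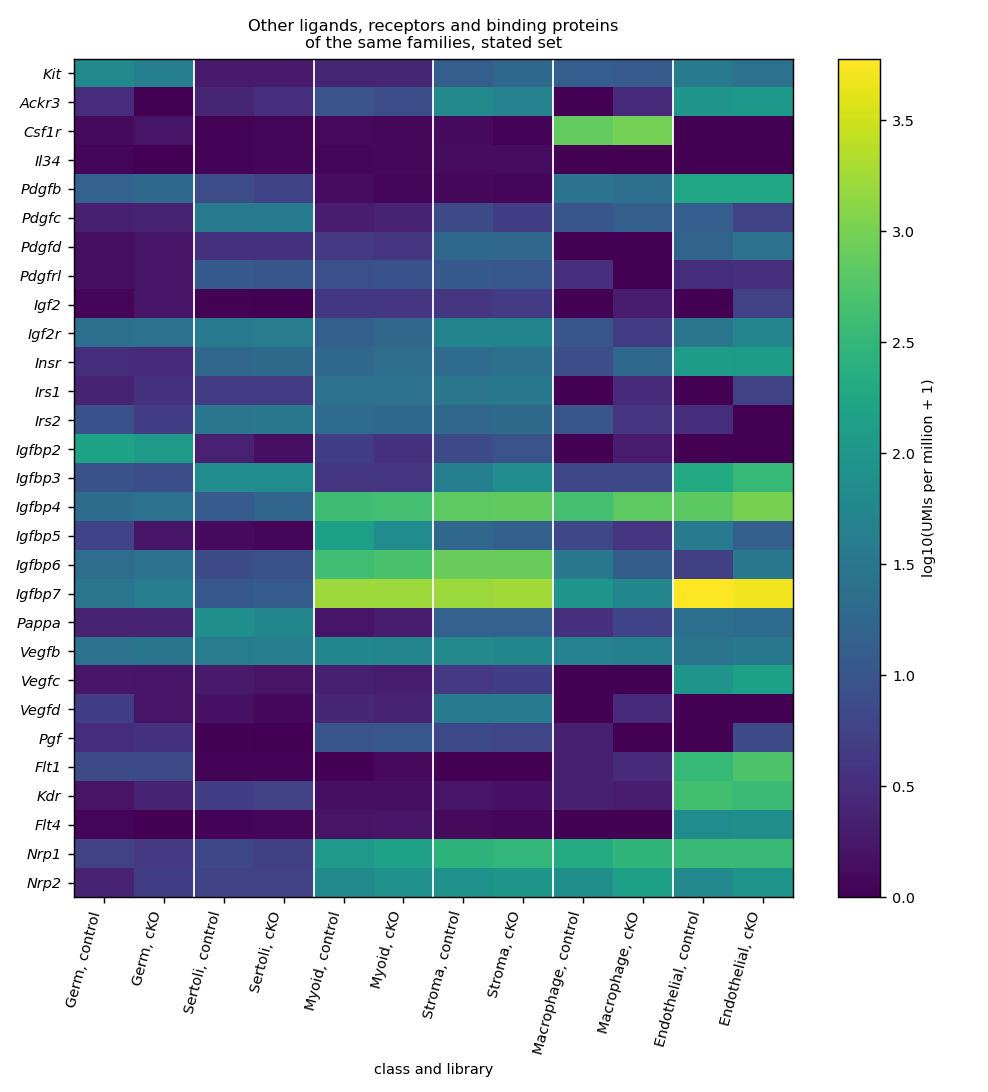
Heat map of log10(CPM + 1) of the 29 other ligands, receptors and binding proteins (1 axis) by class and library of the stated set (other axis). *Csf1r* fills the macrophage-like columns (742 and 955 CPM) and *Flt1* and *Kdr* the endothelial-like columns (*Kdr* 423 and 377 CPM), while *Igf2* is low throughout.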

How the data were processed

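Per the labels and methods, the authors sequenced 10x Genomics 3′ v3.1 libraries of sorted testis cells and ran Cell Ranger 3.0.1 on mm10 with Ensembl 93 genes. They deposited 2 matrices of raw UMI counts (30828 genes, 6794880 barcodes each), and each merges the 2 samples of a genotype, so neither the samples nor the sequencing runs could be told apart. The counts are not normalized.

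Here a barcode was called a cell when its UMIs exceeded the 99th percentile of the 3000 deepest barcodes divided by 10, giving 8341 control and 9336 *Cnot3*-cKO barcodes, then filtered as in the methods (stated set) or more loosely (wider set). Cells were clustered with scanpy 1.11.5 in Python 3.11.15, by the Leiden method as run by igraph (2500 variable genes, 30 components, 15 neighbours, resolution 0.5). The 10 genes, the 29 partner genes and mitochondrial genes were left out of the variable genes. A cluster was named from marker lists when at least 3 markers were found in at least 10% of its cells and 2-fold raised, the list scored highest, and no second cell type was as strong. This naming rule was settled after seeing the data. Clusters with markers of 2 kinds of cell, 2 interstitial lists within the margin, no raised list, or at least 85% of cells from 1 library (at equal library size) stayed unnamed (478 and 507 cells). Scrublet called 486 and 459 doublets, which were kept, and values without them are given beside results, those of partner genes in macrophage-like and endothelial-like cells being added after seeing the data. UMIs were summed per class and library and divided by the class total (CPM), with exact Poisson intervals, exact conditional intervals for log2 ratios and Clopper-Pearson intervals for shares, all at 95% (scipy 1.17.1). A count of 0 allows up to 3 counts. Intervals checked on simulated counts covered 95.7% of true ratios for 7921 genes in germ-like cells and 95.6% for 11700 genes in stroma-like cells. The counts were simulated from the same Poisson model as the intervals, so this checks the calculation alone. It leaves out the gathering of UMIs in few cells and differences between animals, and says nothing about how well the intervals hold for the real counts. Gene positions came from GENCODE M21 and promoter windows from RefSeq. All 10 genes are named, with the partners that bind them or their receptors, partners past 1.5-fold, and the 3 most alike genes. The genes and lists were chosen with earlier results of these data known, and supplementary files with the authors' own comparisons were not used.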

Additional observations from a re-analysis of the deposited data

Results flagged for a closer look

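*Cxcl12* was flagged because its difference between genotypes pointed opposite ways in 2 classes of the wider set. Relative to control, the *Cnot3*-cKO level gave a log2 ratio of −1.03 in germ-like cells (19.6 and 9.61 CPM) and 0.65 in endothelial-like cells (336 and 528 CPM). With 1 library per genotype the difference between the classes was not tested. The endothelial-like value rests on 37 and 42 cells, in which Sertoli markers summed to 1619 CPM in control and 822 CPM in *Cnot3*-cKO, and without doublet calls it was 0.30 (0.03 to 0.57).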

How the results depend on the processing

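The count of gene and class pairs past 1.5-fold was 2 of 30. It was 4 of 39 in the wider set (*Cxcl12* in germ-like and endothelial-like cells, *Cxcr4* in germ-like and *Igf1* in macrophage-like cells), 4 of 38 with cells named one by one, and 12 of 46 pairs with a minimum of 20 UMIs. It was 1 of 28 without doublet calls (*Igf1r* in germ-like cells, *Kitl* there having a log2 ratio of 1.63 on fewer than 100 UMIs), and 1, *Kitl* in germ-like cells, at clustering resolution 1.0, without cell-cycle genes, with median-of-ratios scaling and with the mean of per-cell CPM. In the wider set without doublet calls, an alternative chosen after seeing the data, it was 4 of 37 (*Kitl*, *Cxcl12*, *Cxcr4* and *Igf1r*, all in germ-like cells). It was 3 of 33 with barcodes of at least 2000 UMIs and 3 of 30 with free RNA subtracted (*Kitl* higher in germ-like and lower in endothelial-like cells, *Igf1* lower in germ-like cells). Shares of all genes past 1.5-fold are given only for the stated and wider sets with at least 100 UMIs. Counts under the other settings have no such share beside them, so they do not show whether the 10 genes differed more often than others. Subtracting free RNA turned the log2 ratio of *Cxcl12* in endothelial-like cells to −0.29 and that of *Igf1* in germ-like cells to −1.37, and naming cells one by one turned the latter to −0.74. The subtracted share, estimated from Sertoli markers, was 57.2% of UMIs in control and 2.79% in *Cnot3*-cKO endothelial-like cells. In germ-like cells it was 4.11% and 7.83%. These shares set the size of the subtraction, and other causes of the shifts were not tested. The class of highest level was shared by both libraries for 9 or 10 genes under every alternative run. Of 330 recomputed ratios, 315 moved by less than the counting interval of the ratio and 15 by more. No replicate could be left out. Pairs with fewer than 100 UMIs were not counted at this depth. No paired analysis was possible because the 2 samples of each genotype were merged in 1 matrix and the results come from no test.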

Other observations

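Among the cells that stayed unnamed, a cluster of 10 control and 11 *Cnot3*-cKO cells led by *Rmst* and *Pax8* held *Kitl* at 138 and 123 CPM, *Igf1r* at 192 and 181 CPM and *Cxcr4* at 24.1 CPM from 4 UMIs and 35.0 CPM from 6 UMIs. A cluster led by *Angptl7* and *Ramp1*, with 9 control and 92 *Cnot3*-cKO cells, held *Igf1* at 590 CPM from 86 UMIs and 247 CPM from 253 UMIs, and *Pdgfrb* at 13.7 CPM from 2 UMIs and 65.3 CPM from 67 UMIs. The myoid list scored highest in this cluster, which stayed unnamed because most of its cells came from 1 library. Counting it as myoid-like left 2 of 30 pairs past 1.5-fold, *Kitl* in germ-like and *Igf1* in macrophage-like cells. It moved 3 ratios by more than their counting interval. The cycling interstitial cluster of 250 and 166 cells, led by *Mxd3*, held *Pdgfra* at 267 and 312 CPM, *Igf1* at 392 and 381 CPM and *Cxcl12* at 180 and 168 CPM.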
